A study of Mus musculus with 8 samples.

Results

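The 79 genes described here are those whose name in the authors' deposited table begins with Mrpl or Mrps followed by a number, the names given to mitochondrial ribosomal proteins. They were taken from 47937 gene IDs by a rule on names that uses no measured value. The gene family itself was chosen with earlier results of these data known. Of the 79, 78 are protein coding and 1 is a pseudogene, Mrpl23-ps1. By their known place, 51 of the proteins belong to the large subunit and 26 to the small subunit. Mrps30 and Mrps18a are counted with the large subunit, where their proteins sit despite the names. Mrps36 is counted apart, because its protein is a part of the alpha-ketoglutarate dehydrogenase complex. The genes lie on 17 chromosomes, with 11 on chromosome 11 and no more on any other.

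The mitochondrial ribosome translates the few mRNAs that are transcribed from mitochondrial DNA, all of which in mammals encode subunits of the respiratory chain and ATP synthase. Its RNAs come from the mitochondrial genome, while all of its proteins are encoded in the nucleus, made in the cytosol and imported. By the classes used here, 46 of the 79 genes encode proteins descended from the bacterial ribosome, and 31 encode proteins without a bacterial counterpart. Growing lymphocytes depend on the mitochondrial ribosome to keep oxidative metabolism running.

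RNA came from mouse pro-B cells, an early stage of B lymphocyte development, made immortal by the A-MuLV retrovirus (Abelson murine leukaemia virus). In every library the endogenous EBF1, a transcription factor that B cells need, had been replaced by an exogenous modified gene (genotype EBF1-dTAG_N), whose tag lets the compound dTAG-13 direct the protein to degradation. A group of 4 libraries received 0.5 µM dTAG-13 for 6 h, and the other group of 4 received the solvent DMSO. Their titles carry 0 h, whereas the treatment label of the same DMSO libraries reads 6 h. No library had untagged EBF1 with dTAG-13, so effects of the compound and of EBF1 loss cannot be told apart, and all cells are of 1 transformed type that may differ from normal pro-B cells. The study's text calls the libraries biological replicates and does not say whether they were separate cultures, so p-values measure the spread between these libraries.

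Exonic reads numbered between 28982316 and 38999496 per library. Ebf1 RNA itself rose from 623 ± 13.9 to 767 ± 38.5 CPM (read counts scaled to library size; SD, n = 4), which does not test the loss of the protein. The summed level of 9 pro-B markers was 2696 to 2747 CPM in DMSO and 2029 to 2149 CPM after dTAG-13. Summed markers of T cells, myeloid cells, erythroid cells, stroma and NK cells were near 0, at most 1.12 CPM in any library. Within that range their means were 2.09-fold to 2.92-fold higher after dTAG-13, and the NK sum did not overlap between groups, at 0.104 to 0.261 CPM in DMSO and 0.381 to 0.727 CPM after dTAG-13.

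After dTAG-13 most mitochondrial ribosomal protein mRNAs were slightly lower, and few of them changed beyond the spread between libraries. Of 78 genes that could be tested in exonic reads, 13 fell and 3 rose at an adjusted p below 0.05 (edgeR quasi-likelihood test, Benjamini-Hochberg over all 12889 tested genes). The 13 are 16.7% of the tested members, close to the background of 14.0% of all tested genes called lower. The 3 that rose, Mrpl52, Mrpl11 and Mrpl33, are 3.85%, and the background of genes called higher was 14.3%. In either direction 16 of the 78 were called, with a background of 28.3%. Of the 78 members, 67 had a change below 0, or 85.9%, while 50.7% of all tested genes did. The median log2 change of the members was -0.09 and that of all tested genes 0.00. Cytosolic ribosomal proteins, a list written for comparison, had 90.8% of 76 tested genes below 0 and a median of -0.05, with 3 called lower and 0 called higher.

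All changes were small. They ran from -0.31 to 0.22 on the log2 scale, and 73 of 78 were under 0.2 in size. The falls that passed the test were 1.09-fold to 1.24-fold. None of the 16 called members passed a test against a 1.2-fold change. The standard error of a member's change had a median of 0.06, from 0.04 to 0.43. The call count is therefore sensitive to single libraries: without dTAG-13 replicate 2 or replicate 4, 7 genes were called lower, and without DMSO replicate 1, 2 or 4, 8 were. With scaling to library size alone 4 genes were called lower and 62 were below 0. In bulk RNA, fewer cells of a type and less RNA per cell cannot be told apart.

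**Figure D1:**
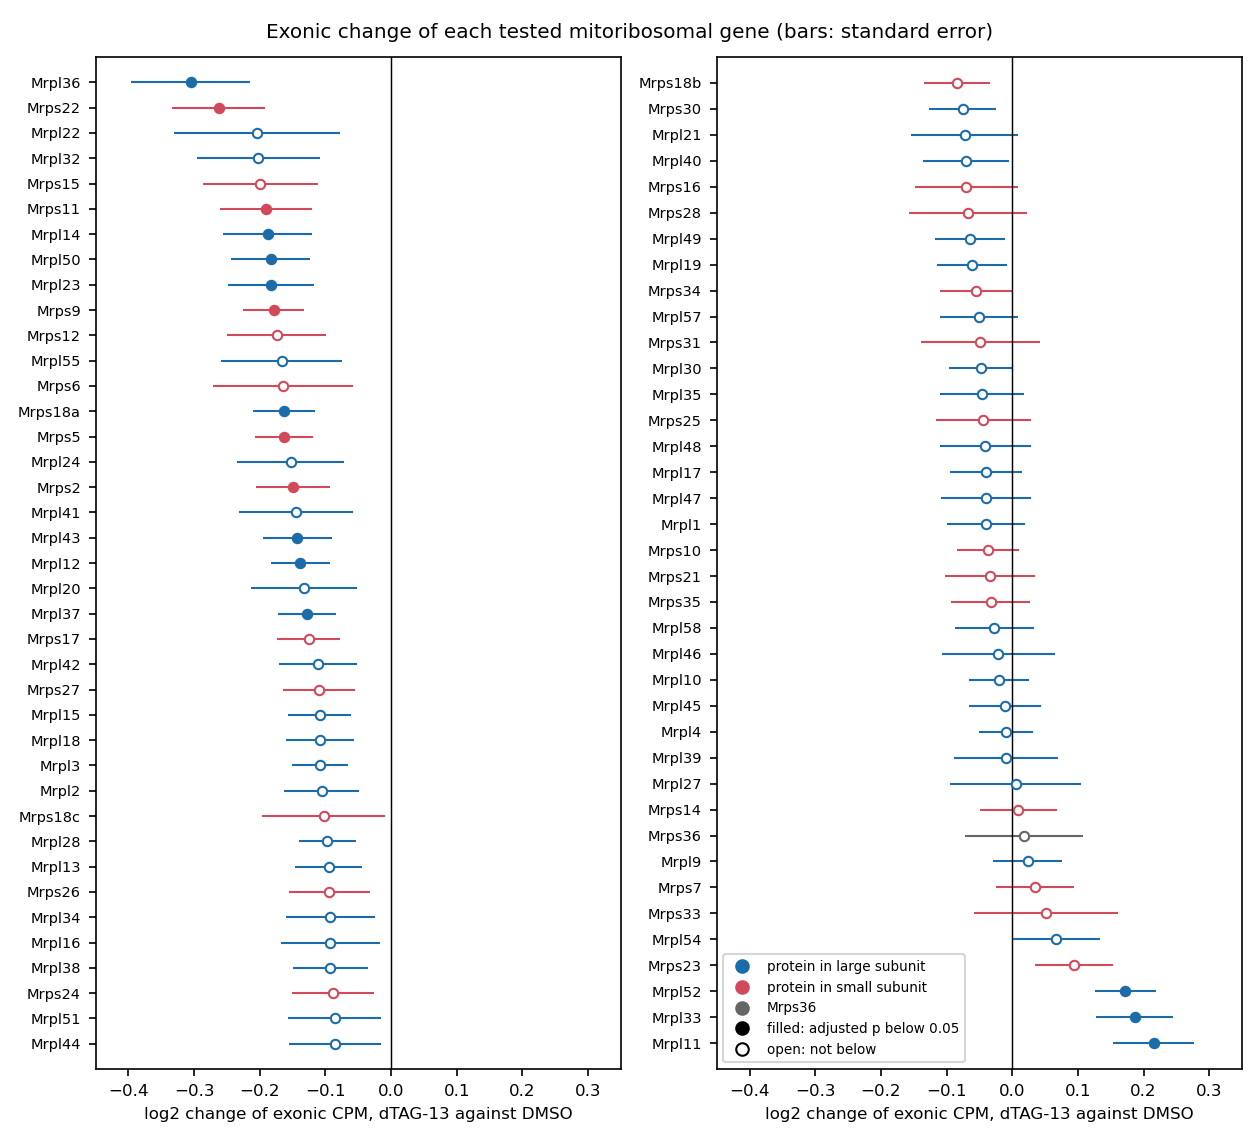
Log2 change of exonic CPM after dTAG-13 for the 77 tested protein-coding members, ordered from the lowest to the highest. Points are edgeR estimates, bars their standard errors, colours the subunit of the protein, and filled points have an adjusted p below 0.05. Most points lie between -0.2 and 0, and the 3 filled points on the right are Mrpl52, Mrpl33 and Mrpl11.

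**Figure D2:**
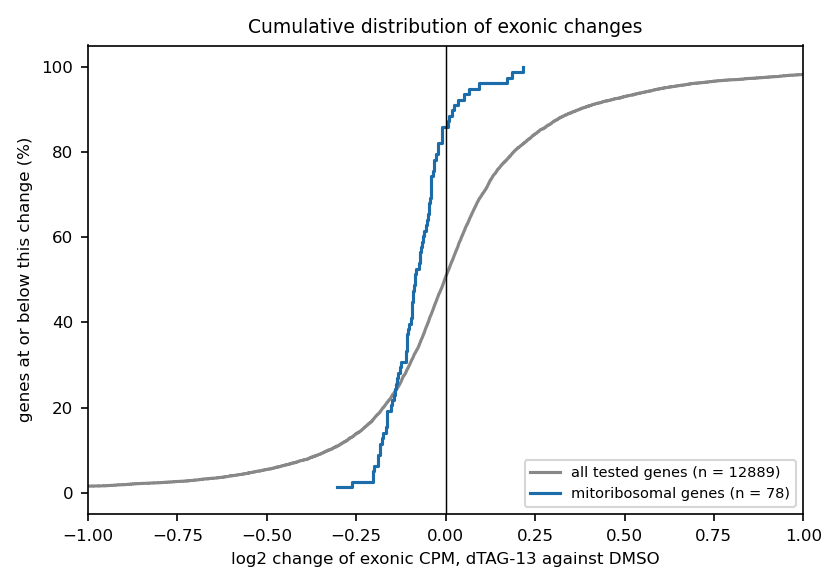
Cumulative share of genes (vertical axis, percent) at or below each log2 change of exonic CPM (horizontal axis, shown from -1 to 1) for all 12889 tested genes and the 78 tested members. The members' curve is steeper and crosses 0 at 85.9%, against 50.7% for all genes.

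Mrps9, Mrps22, Mrps5 and Mrpl52 had the smallest p-values and were called in each of the 8 fits that left out 1 library. The regions around their starts are shown so that these genes can be placed. Each window runs from 250 bases before to 50 bases after the annotated RefSeq start (GRCm38.p6), is written 5′ to 3′ along the gene's own strand, and has matches to the motifs named below in capitals. The windows are chr1:42850983-42851282 on the plus strand for Mrps9, chr9:98601630-98601929 on the minus strand for Mrps22, chr2:127587176-127587475 on the plus strand for Mrps5 and chr14:54426659-54426958 on the plus strand for Mrpl52.
Mrps9: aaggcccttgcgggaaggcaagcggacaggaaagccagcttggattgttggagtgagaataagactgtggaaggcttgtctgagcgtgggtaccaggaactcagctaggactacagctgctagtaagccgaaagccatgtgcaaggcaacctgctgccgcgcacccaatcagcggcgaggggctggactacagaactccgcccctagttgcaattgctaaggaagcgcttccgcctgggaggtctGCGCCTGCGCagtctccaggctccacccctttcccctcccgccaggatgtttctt
Mrps22: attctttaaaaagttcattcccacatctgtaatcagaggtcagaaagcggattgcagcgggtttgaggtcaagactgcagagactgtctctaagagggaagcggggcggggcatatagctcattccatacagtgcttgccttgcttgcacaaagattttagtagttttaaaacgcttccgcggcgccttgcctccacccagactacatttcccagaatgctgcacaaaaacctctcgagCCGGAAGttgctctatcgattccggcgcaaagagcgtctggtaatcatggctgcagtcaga
Mrps5: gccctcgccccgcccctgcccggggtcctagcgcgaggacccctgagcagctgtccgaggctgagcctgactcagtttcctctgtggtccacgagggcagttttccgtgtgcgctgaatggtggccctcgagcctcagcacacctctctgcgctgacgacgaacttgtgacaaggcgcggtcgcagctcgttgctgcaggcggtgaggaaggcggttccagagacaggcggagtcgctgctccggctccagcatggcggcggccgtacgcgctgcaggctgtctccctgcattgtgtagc
Mrpl52: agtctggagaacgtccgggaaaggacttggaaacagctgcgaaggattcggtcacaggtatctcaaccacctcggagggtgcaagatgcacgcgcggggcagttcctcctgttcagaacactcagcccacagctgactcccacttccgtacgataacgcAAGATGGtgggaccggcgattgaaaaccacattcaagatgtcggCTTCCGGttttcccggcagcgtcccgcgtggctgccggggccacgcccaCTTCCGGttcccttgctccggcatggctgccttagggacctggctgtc
In Mrps9 the capitals mark GCGCCTGCGC, a match to the NRF1 motif that begins 5 bases before the start site. In Mrpl52 they mark AAGATGG, a YY1 match that begins 91 bases before the start, and CTTCCGG, an ETS match on the opposite strand, at 47 bases before the start and at base 3 after it. In Mrps22 they mark an ETS match, CCGGAAG, that begins 11 bases before the start. The Mrps5 window held none of the letters searched.

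The 5 motifs were searched on both strands in the 75 RefSeq start windows that matched 69 of the 79 genes. The ETS letters CCGGAAG stood in 34.7% of the member windows, in 8.86% of all 32851 windows and in 19.3% of the windows of genes tested here. The NRF1 letters, GCGC repeated after any 2 bases and bound by a factor known for nuclear genes of mitochondria, were in 18.7%, 6.23% and 13.9%. The YY1 letters AAGATGG stood in 17.3%, 6.34% and 7.72%, and can share the bases AAG with an ETS match. The E-box letters CACGTG stood in 9.33%, 7.15% and 10.2%. Overlapping windows of Mrpl2, each with these letters, were counted separately, so the member share is one of windows and not of genes. The EBF1 letters, TCCC and GGGA with any 2 bases between, stood in 1 member window, or 1.33%, and in 0.904% and 0.999% of the other sets. Among the 13 windows of genes called lower, 4 held the YY1 letters, 3 the ETS letters, 3 the NRF1 letters, 2 the E-box and 0 the EBF1 letters. These are matches of letters and no measure of binding.

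In the small subunit, 5 of 26 genes fell, none rose, and the median log2 change was -0.09. The 5 are 19.2%, beside 14.0% of all tested genes called lower and 14.3% called higher. Mrps9 (1:42851233-42905683, plus strand), which encodes the counterpart of bacterial S9 in the head of the small subunit, had the smallest p-value of all members. Its exonic level was 41.9, 43.3, 42.9 and 42.3 CPM in DMSO replicates 1 to 4 and 38.8, 37.2, 38.3 and 36.2 CPM in the dTAG-13 replicates. Every dTAG-13 library lay under every DMSO library. The log2 change was -0.18 ± 0.05 (SE), with an edgeR adjusted p of 0.0037.

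Mrps22 (9:98588730-98601660, minus strand) encodes a protein of the small subunit with no bacterial counterpart, and inherited defects of it in humans impair mitochondrial translation. It measured 23.9, 21.6, 20.9 and 19.9 CPM in the DMSO libraries and 18.7, 16.6, 18.1 and 18.5 CPM after dTAG-13. The groups did not overlap, and DMSO replicate 1 was the highest library. The log2 change was -0.26 ± 0.07 (SE, edgeR adjusted p = 0.0056).

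Mrps5 (2:127587222-127606829, plus strand) encodes the counterpart of bacterial S5, a protein known for its part in decoding accuracy. It measured 43.0, 43.8, 45.4 and 44.0 CPM in DMSO and 40.2, 39.7, 38.6 and 39.0 CPM after dTAG-13, again with no overlap. Its log2 change was -0.16 ± 0.04 (SE, edgeR adjusted p = 0.00638). Mrps11 and Mrps2, counterparts of bacterial S11 and S2, stood just inside the threshold with adjusted p-values of 0.0445 and 0.0496 and log2 changes of -0.19 and -0.15. Their groups overlapped, and Mrps11 lost its call in 5 and Mrps2 in 4 of the 8 fits that left out 1 library. Just outside stood Mrps17, at -0.13 with an adjusted p of 0.0552.

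In the large subunit, 8 of 50 tested genes fell and 3 rose, with a median log2 change of -0.09. These are 16% and 6%, beside 14.0% of all tested genes called lower and 14.3% called higher. Mrpl36, which encodes the counterpart of one of the smallest proteins of the bacterial ribosome, had the largest fall of any member at -0.31 ± 0.09 (SE, edgeR adjusted p = 0.0115). It measured 10.4, 10.1, 11.1 and 11.7 CPM in DMSO and 9.03, 8.67, 8.93 and 8.43 CPM after dTAG-13. All dTAG-13 libraries were lower than all DMSO libraries. Without DMSO replicate 4 its adjusted p was 0.0521.

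Mrpl12 encodes the protein of the flexible stalk that recruits translation factors, and its protein also binds the mitochondrial RNA polymerase. It was the most abundant member per kilobase of exon. Its level was 80.4, 88.0, 80.6 and 80.0 CPM in DMSO and 78.8, 74.2, 76.8 and 68.9 CPM after dTAG-13. The groups did not overlap, but DMSO replicate 2 stood above the other DMSO libraries. The log2 change was -0.14 ± 0.05 (SE, edgeR adjusted p = 0.0222). The adjusted p was 0.0989 without DMSO replicate 2, 0.0589 without dTAG-13 replicate 2 and 0.101 without dTAG-13 replicate 4.

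Mrps18a, whose protein sits in the large subunit, measured 57.8, 55.2, 57.7 and 52.7 CPM in DMSO and 49.1, 46.9, 53.9 and 49.6 CPM after dTAG-13. The dTAG-13 replicate 3 lay above DMSO replicate 4, so the groups overlapped. Its log2 change was -0.16 ± 0.05 (SE, edgeR adjusted p = 0.0106), and the adjusted p was 0.0532 without dTAG-13 replicate 2. Its paralogs Mrps18b and Mrps18c, whose proteins are in the small subunit, did not pass the test, with log2 changes of -0.08 and -0.10 and adjusted p-values of 0.243 and 0.476. The difference between the paralogs was not tested. Mrps30, the other protein of the large subunit with a small-subunit name, was at -0.08 with an adjusted p of 0.308. Mrps36 was at 0.02 with an adjusted p of 0.917.

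The other large-subunit genes that fell were Mrpl50, Mrpl37 and Mrpl43, which encode proteins with no bacterial counterpart, and Mrpl14 and Mrpl23. Mrpl14 encodes a protein at the face that meets the small subunit, and Mrpl23 one beside the exit of the peptide tunnel. Their log2 changes lay between -0.19 and -0.13 and their adjusted p-values between 0.0222 and 0.0411. Each of these 5 lost its call in 4 to 6 of the 8 fits that left out 1 library, with adjusted p-values up to 0.122. Exons of Mrpl43 share 33.4% of their bases with Twnk, the mitochondrial DNA helicase gene on the opposite strand. Twnk was itself lower, at -0.22 with an adjusted p of 0.0177, and how far the reads of these genes are mixed was not tested. Mrpl3, a core protein near the site of peptide bond formation, stood just outside the threshold, at -0.11 with an adjusted p of 0.0611.

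The 3 genes that rose all belong to the large subunit. Mrpl52 (14:54426909-54429756, plus strand), a gene for a protein with no bacterial counterpart, measured 45.3, 48.5, 46.5 and 46.4 CPM in DMSO and 54.4, 54.0, 53.3 and 48.6 CPM after dTAG-13. The groups separated narrowly, since dTAG-13 replicate 4 was close to DMSO replicate 2. Its log2 change was 0.17 ± 0.05 (SE, edgeR adjusted p = 0.00529).

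Mrpl11 encodes a protein at the base of the stalk, next to the Mrpl12 protein, and changed in the opposite direction to Mrpl12. It measured 27.5, 28.4, 26.5 and 27.3 CPM in DMSO and 31.7, 35.8, 31.2 and 28.6 CPM after dTAG-13. All dTAG-13 libraries were higher than the DMSO libraries, and dTAG-13 replicate 2 was the highest. The log2 change was 0.22 ± 0.06 (SE, edgeR adjusted p = 0.00876), and the adjusted p was 0.0665 without dTAG-13 replicate 2.

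Mrpl33 encodes the counterpart of a small bacterial protein near the tRNA exit site. It measured 24.5, 23.0, 23.4 and 22.6 CPM in DMSO and 27.5, 26.8, 27.1 and 24.9 CPM after dTAG-13. The groups did not overlap, with dTAG-13 replicate 4 the nearest to DMSO. The log2 change was 0.19 ± 0.06 (SE, edgeR adjusted p = 0.0177). Its call was lost without DMSO replicate 4, dTAG-13 replicate 1 or dTAG-13 replicate 3, where the adjusted p reached at most 0.0621.

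**Figure D3:**
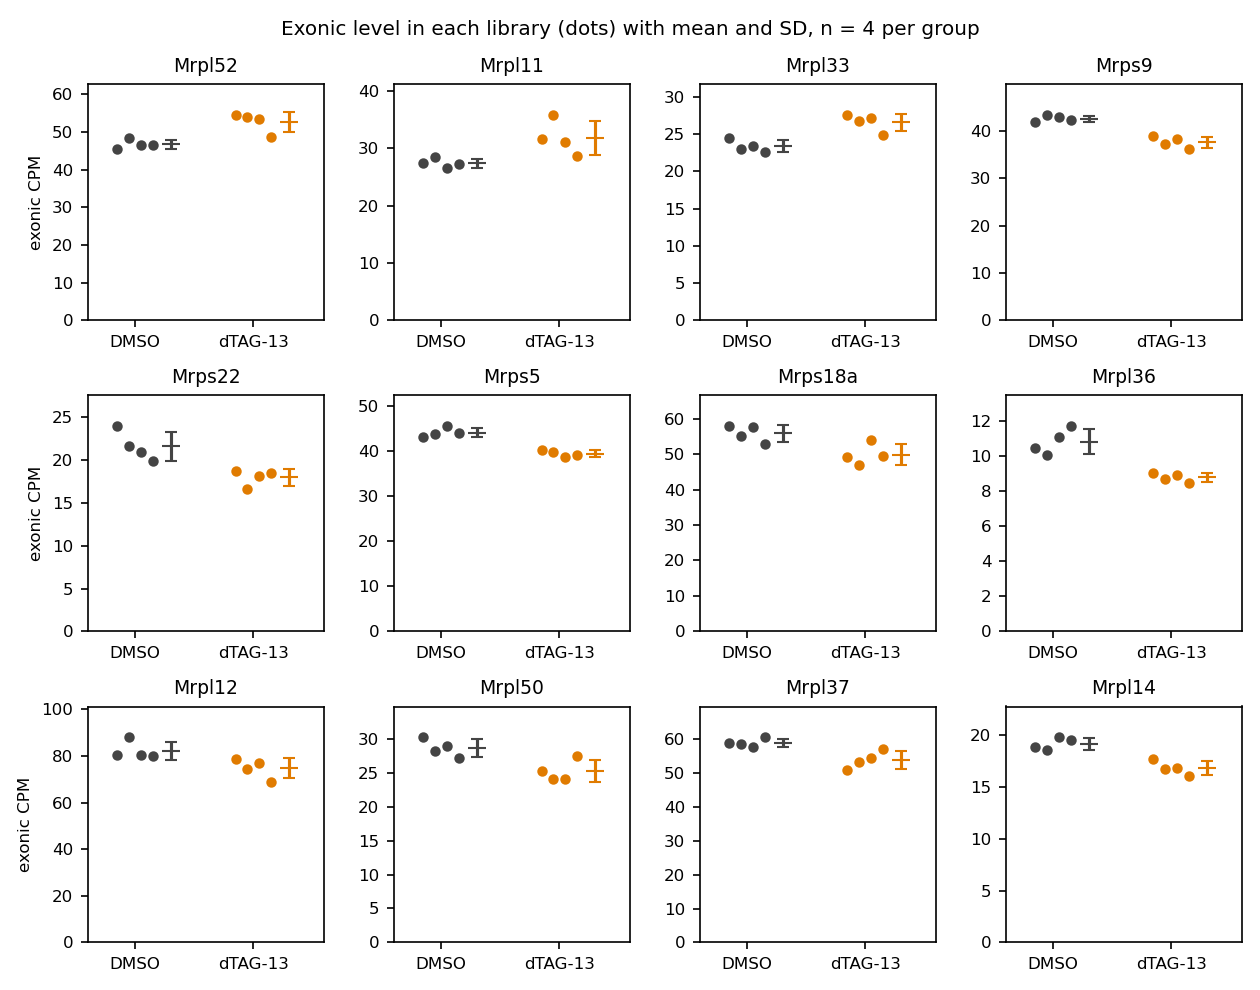
Exonic level (CPM, axes from 0) of the 3 members that rose and the 9 with the smallest p-values among those that fell. Dots are libraries 1 to 4 of each group, and the bars beside them give the mean and SD (n = 4). The panels of Mrps9, Mrps22, Mrps5 and Mrpl36 show no overlap between DMSO and dTAG-13, while those of Mrps18a and Mrpl50 do.

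Separation of the groups gave a similar picture without a test. In 16 of 78 members all dTAG-13 libraries lay under all DMSO libraries, against 13.5% of all tested genes. In 3 members they all lay above, against 14.2%. Of the 13 genes called lower, 8 had separate groups and 5 overlapped. Another 8 genes had separate groups, all lower after dTAG-13, and did not pass the test. The authors' deposited table, from DESeq2, calls 10 members lower and 3 higher at an adjusted p below 0.05 in exonic reads. All 13 were also called here in the same direction.

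Genes for proteins inherited from the bacterial ribosome and those for proteins particular to mitochondria gave similar counts. Among the former 8 of 46 fell and 2 rose, or 17.4% and 4.35%, with a median of -0.10. Among the latter 5 of 30 fell and 1 rose, or 16.7% and 3.33%, with a median of -0.07. Of all tested genes, 14.0% were called lower and 14.3% higher. The difference between these classes was not tested.

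Summed over the 79 genes, the exonic level was 2226, 2288, 2219 and 2196 CPM in the DMSO libraries and 2161, 2109, 2163 and 2057 CPM after dTAG-13. The groups did not overlap, with means of 2232 ± 39.2 and 2122 ± 50.2 CPM (SD, n = 4). Without scaling, as a share of all exonic reads, the groups did overlap. The share was 0.221% ± 0.0074 in DMSO and 0.214% ± 0.0024 after dTAG-13 (SD, n = 4), and DMSO replicate 4, at 0.213%, lay within the dTAG-13 range of 0.211% to 0.217%. The ribosomal RNA genes Gm26917 and Gm42418 held 25.7% to 29.3% of the exonic reads of a library. With their reads left out of the total, the share did not overlap between groups. It was 0.301% to 0.312% in DMSO and 0.292% to 0.298% after dTAG-13. The summed large-subunit level over the summed small-subunit level was 2.30 to 2.31 in DMSO and 2.32 to 2.35 after dTAG-13. No test was made on these sums, which follow from the members chosen.

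**Figure D4:**
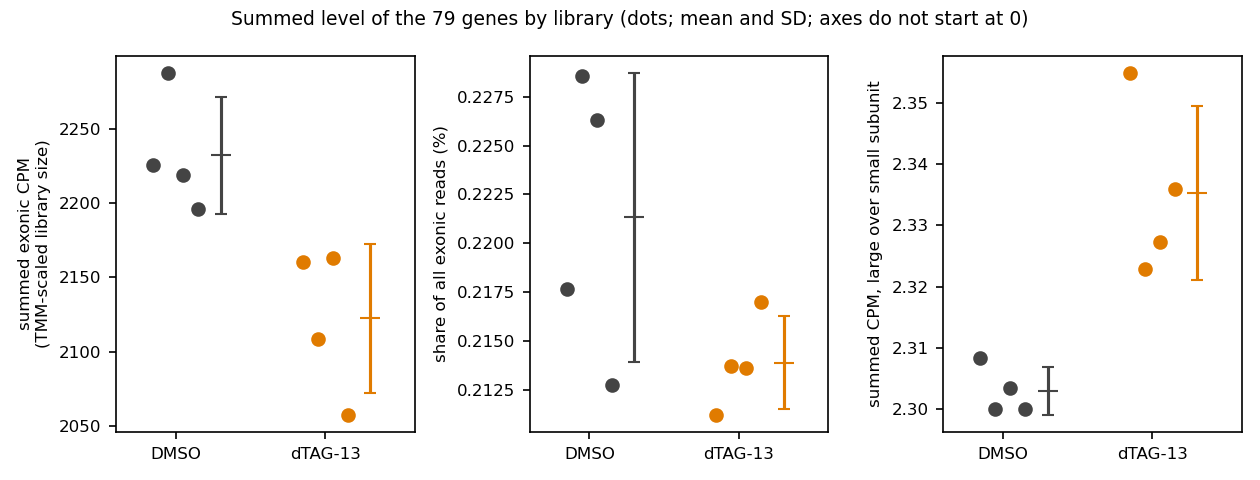
Summed exonic CPM of the 79 genes (left), their share of all exonic reads in percent (middle) and the ratio of summed large-subunit to small-subunit CPM (right) in each library. Dots are libraries, bars the mean and SD (n = 4), and no axis starts at 0. The groups separate on the left and right, and overlap in the middle.

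The genes of the complex differed widely in RNA level although their proteins are needed in equal numbers, apart from the Mrpl12 stalk protein, which is present in several copies. Per kilobase of exon (GENCODE vM21), the mean level over all 8 libraries had a median of 9.57 CPM among the tested protein-coding members and ranged 24.1-fold. Mrpl12 was highest at 51.2 CPM per kilobase, followed by Mrpl52 at 44.7, Mrpl34 at 34.7 and Mrpl28 at 32.6. Mrpl32, whose protein is trimmed by a mitochondrial protease before it joins the ribosome, was lowest at 2.13, next to Mrpl48 at 2.22. These lengths count every annotated exon, so genes with long unused exons appear low. For Mrpl32 the annotation used has 1 exon block of 4982 bases that covers the whole gene, in another version than that of the counts. Yet its whole-gene counts exceeded the exonic ones by at least 45 reads in every library. Its length may therefore not match the exons counted, and its place as lowest and the 24.1-fold range are uncertain. The pseudogene Mrpl23-ps1 was at 0.636 CPM per kilobase and did not pass the test (log2 change -0.14 ± 0.43, SE, edgeR adjusted p = 0.862), and reads of such a copy may come from its parent Mrpl23. The median was 10.1 CPM per kilobase in the large and 7.50 in the small subunit.

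Intronic reads were taken as whole-gene minus exonic counts and come mostly from unspliced RNA. Where genes overlap they may also hold exon reads, as in Mrpl53 (see the closing section). The intronic reads showed fewer calls at lower precision. Of 71 members tested, 1 fell and 2 rose, or 1.41% and 2.82%, while 8.50% of all 11229 tested genes were called lower and 8.26% higher. The median log2 change was -0.02, and the median standard error of a member was 0.15. Mrps9 was the gene that fell, from 183, 151, 184 and 170 intronic CPM in DMSO to 137, 133, 150 and 161 CPM after dTAG-13. The groups overlapped through DMSO replicate 2, and the log2 change was -0.24 ± 0.07 (SE, edgeR adjusted p = 0.0222). When 1 library was left out, the number of members called lower in intronic reads was between 0 and 2, being 0 without DMSO replicate 1, 3 or 4 or dTAG-13 replicate 1 or 2.

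Mrpl52 had 9.19, 11.4, 10.5 and 9.83 intronic CPM in DMSO and 15, 18.7, 12.9 and 12.5 CPM after dTAG-13. All dTAG-13 libraries were higher, and the log2 change was 0.53 ± 0.16 (SE, edgeR adjusted p = 0.0219). Mrpl33 had 116, 128, 126 and 115 intronic CPM in DMSO and 145, 173, 178 and 186 CPM after dTAG-13, a log2 change of 0.49 ± 0.07 (SE, edgeR adjusted p = 1.7e-05). Mrpl33 overlaps Gm43809, a predicted gene on the same strand that had 0 exonic reads. The whole-gene minus exonic counts of Gm43809 rose by 0.35 on the log2 scale (edgeR adjusted p = 1.00e-04) and may hold exon reads. Reads of the shared stretch cannot be told apart. In Mrpl11 the intronic level was low, 1.57 ± 0.28 CPM in DMSO and 3.13 ± 0.80 CPM after dTAG-13 (SD, n = 4), and the log2 change of 0.97 had an edgeR adjusted p of 0.0528. Of the 3 genes that rose in exonic reads, Mrpl52 and Mrpl33 were called higher in intronic reads, where 8.26% of all tested genes were. Mrpl11 was not called, and had as few as 12 intronic reads in a library. The 3 were picked by their exonic rise in the same libraries, so their intronic values are no separate evidence. Without DMSO replicate 1, DMSO replicate 4 or dTAG-13 replicate 2, 1 member was called higher in intronic reads.

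Of the 13 genes that fell in exonic reads, 10 had enough intronic reads for a test. Among these 9 had an intronic change below 0, and 1, Mrps9, was called. In intronic reads 57.7% of the 71 tested members and 50.6% of all tested genes were below 0. The 10 were picked by their exonic fall in the same libraries, so their intronic signs are no separate evidence. Across the 55 members with at least 50 intronic reads in every library, exonic and intronic changes had a Pearson r of 0.77 and a Spearman rho of 0.66, and 37 had the same sign. This is a correlation across genes that share the same 8 libraries, so it describes them only. The correlation and the shared signs were not measured over all genes. No member differed between its exonic and its intronic change at an adjusted p below 0.05 (edgeR interaction test, 70 members, background 0.319% of 10026 genes). At an unadjusted p below 0.05 there were 3, and DESeq2 called 0. The smallest adjusted p was 0.269, for Mrpl33, whose exonic rise was smaller than its intronic one by 0.31 on the log2 scale. Mrpl11 and Mrpl52 came next with differences of -0.74 and -0.36 and adjusted p-values of 0.41 and 0.462, then Mrpl51 with 0.74 and 0.705.

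**Figure D5:**
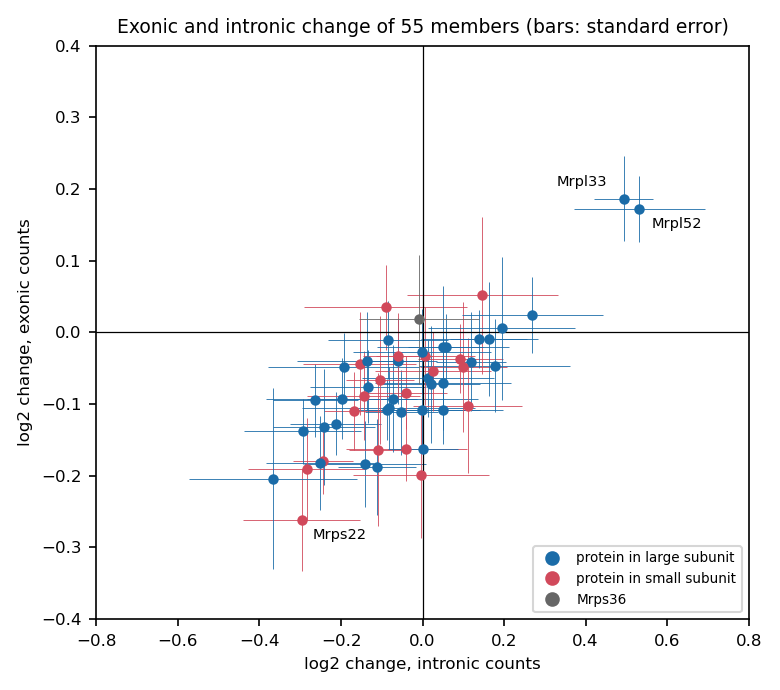
Log2 change in intronic counts (horizontal) against log2 change in exonic counts (vertical) for the 55 members with at least 50 intronic reads in every library. Points are edgeR estimates, bars standard errors, and colours give the subunit of the protein. Mrpl33 and Mrpl52 stand apart at the upper right, and most other points lie within 0.3 of 0 on both axes.

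Another 5 proteins of the mitochondrial ribosome carry other names and lie outside the name rule. Of these, Ptcd3, which encodes a small-subunit protein with RNA-binding repeats, fell and the rest did not pass the test. This 1 of 5 is 20%, beside 14.0% of all tested genes called lower. Ptcd3 measured 65.1, 68.5, 68.8 and 66.9 CPM in DMSO and 57.0, 58.8, 59.3 and 59.2 CPM after dTAG-13, with no overlap. The log2 change was -0.20 ± 0.04 (SE, edgeR adjusted p = 0.000313), and its intronic reads were lower by -0.19 (adjusted p = 0.0446). Dap3 was at 0.07, Chchd1 at -0.10, Aurkaip1 at -0.09 and Gadd45gip1 at -0.12, with adjusted p-values between 0.121 and 0.329. Mrpl57 and Mrpl58, known earlier as Mrp63 and Ict1, are among the 79 and did not pass the test, at -0.05 and -0.03.

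Genes that assemble the mitochondrial ribosome or modify its RNA fell in 4 of 27 cases and rose in none, with a median of -0.02. The 4 are 14.8%, near the 14.0% of all tested genes called lower. Those that fell were Noa1, a GTPase of small-subunit assembly, at -0.23, Mterf4, which brings an RNA methyltransferase to the large subunit, at -0.34, Rbfa at -0.27 and Mrm3, an RNA methyltransferase, at -0.32. Their edgeR adjusted p-values were 0.000524, 0.000849, 0.00202 and 0.023. The groups of Noa1 and Mterf4 did not overlap.

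Of 15 tested translation factors of mitochondria, 1 fell and 1 rose, or 6.67% each, where the background was 14.0% lower and 14.3% higher. Tufm, the elongation factor that carries tRNAs to the ribosome, fell from 73.9 ± 2.03 to 64.8 ± 5.21 CPM (SD, n = 4; log2 change -0.19, edgeR adjusted p = 0.00341). Mtif2, the initiation factor that places the first tRNA, rose from 16.8 ± 2.01 to 21.5 ± 1.81 CPM (SD, n = 4; log2 change 0.35, edgeR adjusted p = 0.0014). Its intronic reads rose as well, by 0.40 (adjusted p = 0.00393).

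Among 20 tRNA synthetases and related enzymes of mitochondria, 4 fell and 1 rose, or 20% and 5%, beside 14.0% and 14.3% of all tested genes. Tars2 fell by 0.23 on the log2 scale (edgeR adjusted p = 0.000615). Qrsl1, a subunit of the enzyme that makes glutaminyl-tRNA, rose by 0.31 (adjusted p = 0.000334). Lars2 had the largest fall of that list, at -1.46, but its libraries overlapped: 258, 111, 125 and 43.8 CPM in DMSO and 45.7, 49.3, 59.2 and 40.7 CPM after dTAG-13. The RNA of the large mitochondrial ribosomal subunit, mt-Rnr2, had 264, 131, 128 and 51.7 CPM in DMSO and 63.0, 56.3, 69.1 and 47.0 CPM after dTAG-13. In both, replicate 1 was the highest and replicate 4 the lowest of the DMSO libraries. Both mitochondrially encoded ribosomal RNAs, of which mt-Rnr2 is 1, were called lower in exonic reads, with log2 changes from -1.28 to -0.88. Ribosomal RNA was depleted from these libraries, and the part of the depletion in these values and in those of Lars2 was not tested.

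Genes that transcribe, process and maintain mitochondrial DNA fell in 6 of 19 cases and rose in 1, with a median of -0.11. These are 31.6% and 5.26%, beside 14.0% and 14.3% of all tested genes, and the list was not tested. Elac2, the enzyme that cuts the 3′ ends of mitochondrial tRNAs, fell from 58.5 ± 2.20 to 48.2 ± 2.47 CPM (SD, n = 4; log2 change -0.28, edgeR adjusted p = 2.96e-05). Mterf2 fell by 0.68 (adjusted p = 0.000199). Mgme1, an exonuclease of mitochondrial DNA, rose by 0.51 (adjusted p = 0.000183). Of the 13 mRNAs that the mitochondrial ribosome translates, 11 passed the filter on low counts, and of these 0 were called lower and 1, mt-Co1, was called higher, with a median of 0.08. The mt-Co1 level was 3251 ± 170 CPM in DMSO and 3565 ± 217 CPM after dTAG-13 (SD, n = 4; log2 change 0.13, edgeR adjusted p = 0.0104), with overlapping groups.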

How the data were processed

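Total RNA of 8 libraries, 4 per group, was sequenced after ribosomal RNA depletion with a stranded kit, per the labels' protocols. The authors deposited raw counts of reads, one table for exons and another for the full length of each gene. Tools listed in the submitters' processing notes are featureCounts of Subread 2.0.0, STAR 2.7.4a, DESeq2, deepTools 3.3.2 and SAMtools 1.10; builds listed are GRCm38.p4 and mm10. The strand and overlap settings of the counting are not given in the sources used here. The authors' deposited table holds mean normalized counts (a signal, not used here), log2 fold changes and p-values for exonic and intronic reads, per the file headers. Its names chose the members, and only its calls are used beside the tests made here.

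Intronic counts were whole-gene minus exon counts. Counts were tested with edgeR 4.0.16 (R 4.3.3): TMM scaling, filterByExpr with a minimum count of 10 and total of 15, quasi-likelihood F test with treatment as the only term, and Benjamini-Hochberg adjustment over all tested genes, threshold 0.05. Exonic against intronic change was tested as an interaction with the library as a block. CPM are per TMM-scaled library size, so every level is a share of a library's RNA. The test code was also run on simulated counts in which all genes had the same spread. Real genes differ in spread, so no statement here rests on that run. Depth gave a median standard error over all genes of 0.07 (exonic) and 0.11 (intronic) on the log2 scale. Coordinates and exon lengths are from GENCODE vM21 (GRCm38).

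The members and lists were chosen with earlier results of these data known. Named members are the 12 called lower and up to 6 called higher with the smallest p, the 4 highest and 3 lowest per kilobase, those just inside and outside the threshold (2 each), proteins placed elsewhere than their names say, Mrps18 paralogs, and the 4 smallest p in intronic and difference tests. From each related list up to 3 called genes are named, and Mrm3, Twnk and genes that overlap a member, outside this, were chosen after their values were seen. Alternatives were DESeq2 1.42.0 and its size factors, library size alone, no filter, a replicate block, whole-gene counts, a test against 1.2-fold and leaving out each library.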

Additional observations from a re-analysis of the deposited data

Results flagged for a closer look

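Among the 78 tested members, a single library stood far from the other 3 of its group in exonic CPM for 5 genes, by Dixon's criterion for 4 samples. Chance gives such a library in about 1 of 20 groups. Both groups of each of the 78 genes were searched, so 5 is no more than chance would give. Mrpl12 measured 88.0 CPM in DMSO replicate 2 and 80.0 to 80.6 CPM in the other DMSO libraries. Mrpl3 measured 56.0 CPM in DMSO replicate 3 and 58.4 to 58.9 CPM in the others. Mrps15 measured 12.6 CPM in DMSO replicate 4 and 11.8 to 11.9 CPM in the others. Mrps27 measured 27.1 CPM in dTAG-13 replicate 4 and 30.04 to 30.4 CPM in the others, and Mrps16 measured 15.04 CPM in dTAG-13 replicate 1 and 13.1 to 13.4 CPM in the others.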

How the results depend on the processing

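The count of members called lower in exonic reads, 13, was 13 with DESeq2's size factors, 12 with DESeq2, 9 with no filter, 8 with whole-gene counts, 4 with library size alone, 0 against a 1.2-fold change and 7 to 11 when 1 library was left out. The count called higher was 3 in all of these but 0 against 1.2-fold and 2 to 3 with a library left out. In intronic reads 0 members were called lower with library size alone, and with 1 library left out 0 to 2 were lower and 1 to 2 higher. The count called higher there, 2, was 3 with library size alone and with DESeq2. The members' median log2 change was -0.10 to -0.06 with a library left out and -0.06 with library size alone, where the median of all genes was 0.02. The ratio of the members' share of exonic reads after dTAG-13 to that in DMSO was 0.966, and 0.954 to 0.977 with a library left out. Without the reads of Gm26917 and Gm42418 this ratio was 0.965. In 15 of the 78 members the exonic change had another sign when a library was left out, with other size factors, with library size alone or with whole-gene counts. The smallest adjusted p of the 15 in any of these was 0.436, and 63 members kept their sign. Among the 15 were Mrpl48, 0.024 with whole-gene counts, Mrpl23-ps1, -0.38 to 0.11 with a library left out (above 0 without dTAG-13 replicate 3), and Mrps36, -0.038 to 0.049 with a library left out (below 0 without DMSO replicate 2 or dTAG-13 replicate 2). The cause was not tested. With a replicate block 13 members were lower and 3 higher. Same-numbered libraries correlated at -0.05 to 0.07. DMSO replicates 1 and 4 correlated best with their own number, and replicates 2 and 3 with another. These few weak correlations cannot settle whether the numbers pair the libraries. A block could not be added to the difference of exonic and intronic change, which already holds the library as a block. The median standard error of a member was 0.15 in intronic and 0.06 in exonic counts.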

Other observations

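Mrpl53, a large-subunit gene, could not be tested in exonic reads, because it had 0 of them in all 8 libraries. Its whole-gene counts exceeded the exonic ones by 385 to 597 reads per library. This excess was tested among the intronic counts, with a log2 change of 0.18 and an edgeR adjusted p of 0.195. The gene spans 6:83109040-83109939 with 790 exon bases, so the excess cannot be read as its intronic RNA. In the annotation 88.0% of its exon bases are shared with Gm42688, a gene on the same strand, which had 58 to 104 exonic reads. Reads of these genes cannot be assigned to either. In all, 33 members share exon bases with another gene, 17 of them over 10% of their exons, and among the 16 called members these 17 include Mrpl12, Mrpl14 and Mrpl43. For Mrpl14 the partner is Tmem63b on the opposite strand, whose log2 change of -0.11 had an adjusted p of 0.217 (edgeR).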
